A study of Mus musculus with 4 samples.

Results

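The secretory stromal cells of the vas deferens are 226 of the 8880 cells in this single-cell atlas of the mouse epididymis and vas deferens. They were taken as the one population of the deposited cell table, labelled AngryVasStromal there, that holds exactly 226 cells. Of these, 213 came from the vas deferens library, 8 from the cauda, 5 from the corpus and 0 from the caput, so that 94.2% were vas deferens cells (exact 95% Clopper-Pearson interval 90.4 to 96.9%). The tissue came from 4 male FVB/NJ mice, 10 to 12 weeks old, and no treatment or engineered allele is stated for them. Their 8 ducts were cut into caput, corpus, cauda and vas deferens, and the 8 pieces of each region were pooled and dissociated with collagenase, trypsin and DNase to give 1 library of 3′ tags per region on the 10x platform. Each group is therefore a single library of pooled animals, so the values have no replicates and nothing was tested. Levels are UMIs (unique molecular identifiers, each standing for 1 captured transcript) summed over the cells of a population per 1000000 UMIs of that population (UPM). All intervals are 95% intervals for counting error only and do not cover animals, dissections or dissociations. Those of levels and ratios take UMIs as independent, so they do not cover the spread between cells either.

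The vas deferens carries sperm from the cauda epididymis to the urethra, and its wall consists of an epithelium, a connective tissue layer and thick smooth muscle. Stromal cells of connective tissue build the collagen matrix, and many can also release chemokines, the small proteins that attract leukocytes along a gradient, and cytokines such as interleukin 6 that signal to immune and epithelial cells. CC chemokines such as CCL2 attract monocytes through CCR2, while CXC chemokines such as CXCL1 and CXCL2 attract neutrophils through CXCR2.

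In the vas deferens library the secretory cells made up 6.08% of 3506 cells and 21.0% of the 1015 stromal cells (interval 18.5 to 23.6%). In the caput they were 0 of 259 stromal cells, with an approximate upper limit of 1.16% (3 of 259) in place of an exact interval. They were compared first with the 517 stem-like stromal cells of the same library, named by the study for *Lgr5*, *Angpt1* and *Tspan8*, and then with its 209 myofibroblasts and with 39 and 37 cells of a pair of smaller stromal populations, C2 fibroblasts and C4 stromal cells. The secretory cells held 655288 UMIs with a median of 3129 per cell and 1114 genes, and the stem-like cells held 1088175 UMIs with a median of 2025 per cell and 948 genes. Ribosomal protein genes took 15.9% of the UMIs in secretory and 21.6% in stem-like cells. Across the 4 libraries 43 cell barcodes occurred more than once, and 1 of them belonged to a secretory cell of the vas deferens. A doublet caller marked 4 of the 213 secretory cells (1.88%) and 16 of the stem-like cells (3.09%), and these cells were kept.

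Markers of fibroblasts were present and the defining markers of most other cell types were at or near 0, while 1 of the 4 markers given for the population was not found in it as a whole. *Dcn*, the collagen-binding proteoglycan decorin, stood at 19167 UPM, and a fibroblast list of 11 genes summed to 25081 UPM against 16541 in stem-like cells, 5528 in myofibroblasts and 33858 in C2 fibroblasts. Of 10 immune markers measured, 7 were at 0 UMIs in the secretory cells, among them *Ptprc*, *Csf1r* and *C1qa*, and the list summed to 10.7 UPM, led by *Cd14*, against 12910.1 in macrophages. The epithelial list summed to 39.7 UPM with *Epcam* at 0 UMIs, against 5229 in principal and 11499.7 in basal cells. The smooth muscle list summed to 418 UPM against 104335 in muscle cells, and the glial and adipocyte lists to 4.58 and 1.53 UPM. Of the endothelial markers, *Pecam1*, *Plvap*, *Lyve1* and *Ackr1* were at 0 UMIs, while *Kdr*, a receptor for VEGF, stood at 83.9 UPM against 11.9 in stem-like cells, a ratio of 7.03, and *Emcn*, an endothelial sialomucin, at 59.5 UPM against 23.9, a ratio of 2.49. The endothelial list summed to 149.6 UPM in secretory, 69.8 in stem-like and 4183 in endothelial cells. The mesothelial transcription factor *Wt1* stood at 118 UPM (77 UMIs) against 12.9 in stem-like cells, a ratio of 9.13 (5.13 to 17.5), while *Upk3b*, *Krt7* and *Bnc1* of the same list were at 0 UMIs. The part of such cells in the levels below was not tested. Of the 4 population markers, *Ptx3*, *Tslp* and *Ccl2* were high in these cells, and *Cxcl13* was not: 34 of its 37 UMIs lay in 1 cell.

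Against stem-like cells, 379 of 5964 genes were at least 2 times higher in the secretory cells (6.35%) and 1385 were at least 2 times lower (23.2%), where a gene was counted if the higher population had 20 UMIs or more and a count of 0 was raised to 3. The clusters were built from these same counts, so every ratio here is a description. The genes that were higher took 24.7% of all UMIs in secretory cells and 5.89% in stem-like cells, and the median ratio over all counted genes was 0.755, or -0.41 on the log2 scale. With totals scaled by TMM, which brings the median gene near equality, all log2 ratios moved up by 0.35, and 628 genes were higher and 881 lower. The share of higher genes among all genes past the threshold was then 41.6% in place of 21.5%. Counts for lists of genes against stem-like cells are to be set beside these shares of 6.35% higher and 23.2% lower, and their medians beside the median ratio of 0.755, which becomes 0.962 with TMM.

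**Figure D1:**
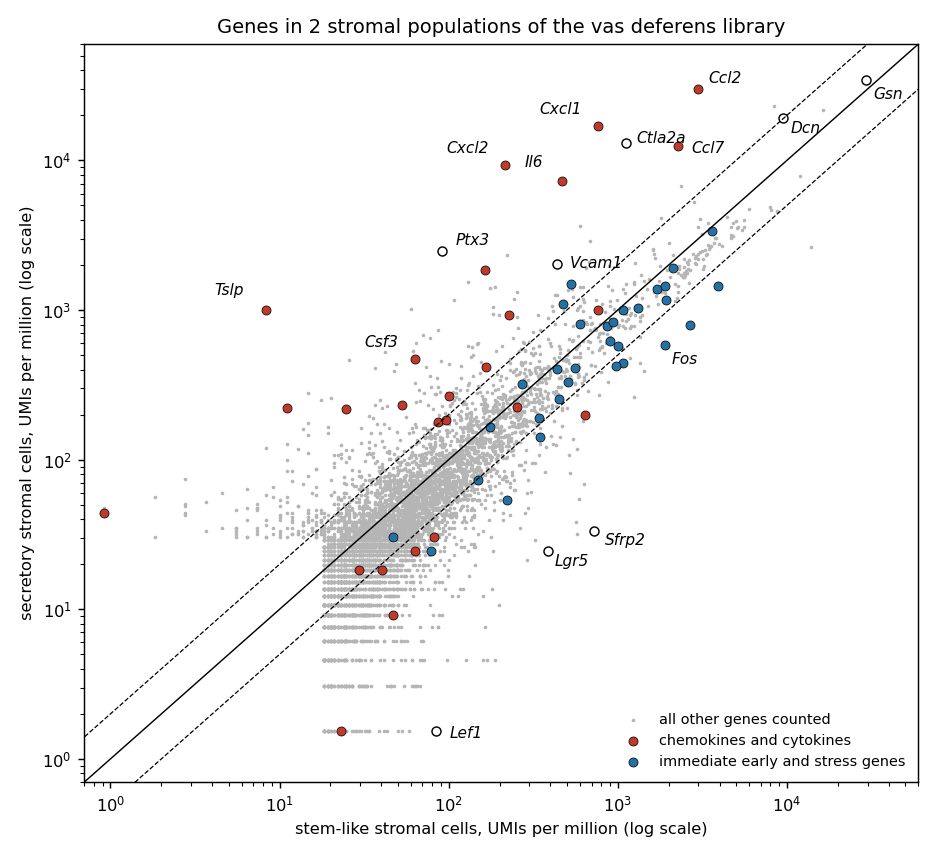
Levels in UPM of the 5950 counted genes with UMIs in both populations, stem-like cells on the x axis and secretory cells on the y axis, both log scales; the solid line marks equality, the dashed lines a ratio of 2, and open circles are other genes named in the text. *Ccl2*, *Cxcl1*, *Cxcl2*, *Il6* and *Tslp* lie far above the upper dashed line and most immediate early and stress genes lie between the dashed lines or below the lower one.

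Chemokines set the secretory cells apart from other stroma, though not from macrophages. The 33 chemokine genes measured summed to 73308 UPM, or 7.33% of all UMIs of the population, against 8291 UPM in stem-like cells, 3732 in myofibroblasts and 16969.6 in C2 fibroblasts. Of the 14 with enough UMIs to be counted, 10 were at least 2 times higher than in stem-like cells, 2 were lower and 2 lay between, with a median ratio of 7.77. Under TMM the same numbers were 10 higher and 1 lower. The other 19 had fewer than 20 UMIs in both populations.

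*Ccl2*, the monocyte attractant MCP-1, was the second most abundant transcript of the population after the actin-severing protein gelsolin (*Gsn*), with 19642 UMIs. It stood at 29975 UPM in secretory cells (29557 to 30397), at 2988 in stem-like cells, 1217 in C2 fibroblasts, 920.3 in myofibroblasts and 287 in C4 stromal cells. Outside the stroma, macrophages had 3681 UPM, endothelial cells 1218 and principal cells 51.5. The secretory level was 10.0 times that of stem-like cells (9.66 to 10.4) and 8.14 times that of macrophages, the highest other population, and 77.0% of all *Ccl2* UMIs of the library lay in the secretory cells. *Ccl7*, or MCP-3, followed at 12507 UPM against 2266 in stem-like cells, a ratio of 5.52 (5.28 to 5.78), with 3258 UPM in macrophages. *Ccl11*, or eotaxin, which attracts eosinophils, stood at 1843 UPM against 164 in stem-like cells, a ratio of 11.3 (9.62 to 13.3). These genes lie beside each other on chromosome 11 (GRCm38), *Ccl2* at 82035577 to 82037452, *Ccl7* at 82045712 to 82047525 and *Ccl11* at 82057832 to 82062955. Their neighbours in that cluster were low or not detected: *Ccl12* had 0 UMIs, where the 3 UMI floor is 4.58 UPM, and *Ccl8* had 12 UMIs, or 18.3 UPM.

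Among the CXC chemokines that signal through CXCR2, *Cxcl1* stood at 16893 UPM in secretory cells, 767 in stem-like cells, 1188 in myofibroblasts, 891 in C2 fibroblasts and 1466 in C4 stromal cells. The ratio to stem-like cells was 22.0 (20.5 to 23.6). *Cxcl2* stood at 9338 UPM against 215 in stem-like cells, a ratio of 43.4 (38.1 to 49.7). Its level in macrophages was higher still, at 13406 UPM, so that *Cxcl2* separated the secretory cells from other stroma but not from macrophages. *Cxcl1* was at 4865 UPM in macrophages and 4449 in endothelial cells, both below the secretory cells. *Cxcl5*, another CXCR2 ligand, stood at 223 UPM in secretory cells (146 UMIs) and 113 in myofibroblasts, with 12 UMIs in stem-like cells, a ratio of 20.2 with a lower bound of 11.2. In each population 1 cell held much of the *Cxcl5*: 35.6% of the UMIs in secretory cells, 87.0% in myofibroblasts and 83.3% in stem-like cells. *Cxcl3*, named after its values were seen because of its place beside the others, had 49 UMIs in secretory and 0 in stem-like cells. With the stem-like count raised to the floor the ratio was 27.1, which is not a lower bound. *Cxcl1*, *Cxcl2*, *Cxcl3* and *Cxcl5* lie within 147 kb of chromosome 5, in which *Ppbp*, *Pf4* and *Cxcl15* had 0 UMIs in the secretory cells. Reads that aligned to more than 1 place were not counted by the authors, which can lower the counts of such closely related genes.

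*Cxcl12*, which acts through CXCR4 and holds lymphocytes and progenitor cells in tissues, stood at 920.2 UPM against 228 in stem-like cells, a ratio of 4.04 (3.48 to 4.70). *Cxcl16* stood at 179 UPM, a ratio of 2.07. In the other direction, *Cxcl14* was at 198 UPM against 642 in stem-like cells and 11398 in C2 fibroblasts, and *Cxcl10*, an interferon-induced chemokine, at 1007 UPM was close to the 767 UPM of stem-like cells. Macrophages reached nearly the same summed chemokine level, 72251 UPM, in part with other genes: *Ccl4* led there with 36.4% of the chemokine UMIs, while *Ccl2* led in secretory cells with 40.9%. Shared leaders were *Cxcl2*, with 18.6% of the chemokine UMIs in macrophages and 12.7% in secretory cells, and *Cxcl1*, with 6.73% and 23.0%.

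The promoters of 3 CXCR2 ligands and *Il6* are shown because these genes had some of the largest ratios and share a short sequence. The letters searched, a core of the sites that NF-kB factors bind, were GGGA, then 2 bases of any kind, then TTCC, on both strands, in windows from 250 bases before to 50 bases after each RefSeq start (GRCm38.p6). Of all 32851 windows, 1.47% held a match, and of the windows of genes at least 2 times higher than in stem-like cells 2.01% did, beside 1.53% of those of all counted genes. Of the 18 chemokine and cytokine genes that were at least 2 times higher, 11 had a window in the table, and 5 of these held a match: *Cxcl1*, *Cxcl2*, *Cxcl3*, *Il6* and *Csf1*. Each sequence below runs 5′ to 3′ on the plus strand and ends at the base before the start, with the matches in capitals. In the 3 *Cxcl* genes the 11 capital letters are a pair of overlapping matches, 1 on each strand.
Cxcl1, chr5:90891145-90891244: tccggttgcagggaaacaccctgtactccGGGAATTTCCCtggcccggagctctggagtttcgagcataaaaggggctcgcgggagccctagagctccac
Cxcl2, chr5:90903799-90903898: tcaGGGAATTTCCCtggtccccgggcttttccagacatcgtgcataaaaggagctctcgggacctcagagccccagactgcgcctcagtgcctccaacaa
Cxcl3, chr5:90786001-90786100: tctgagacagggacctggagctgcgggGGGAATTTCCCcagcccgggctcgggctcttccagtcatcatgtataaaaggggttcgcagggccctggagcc
Il6, chr5:30013014-30013113: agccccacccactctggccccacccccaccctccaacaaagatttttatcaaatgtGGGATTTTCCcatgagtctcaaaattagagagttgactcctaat
The match began 71 bases before the start in *Cxcl1*, 97 in *Cxcl2*, 73 in *Cxcl3* and 44 in *Il6*. The windows of *Ptx3*, *Lif*, *Il11*, *Il33*, *Cxcl12*, *Cxcl13* and *Tnfsf15* held no match. None of the 7 windows of the NF-kB feedback genes that were at least 2 times higher held these letters, and a match is a description of the sequence, not a bound site. The letters TGANTCA, a core of AP-1 sites, were in 7.81% of all windows, in 5.23% of those of all counted genes, in 10.6% of those of the higher genes and in those of *Il6*, *Il11* and *Lif*. They were also in 2 of the 7 windows of the NF-kB feedback genes that were at least 2 times higher.

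**Figure D2:**
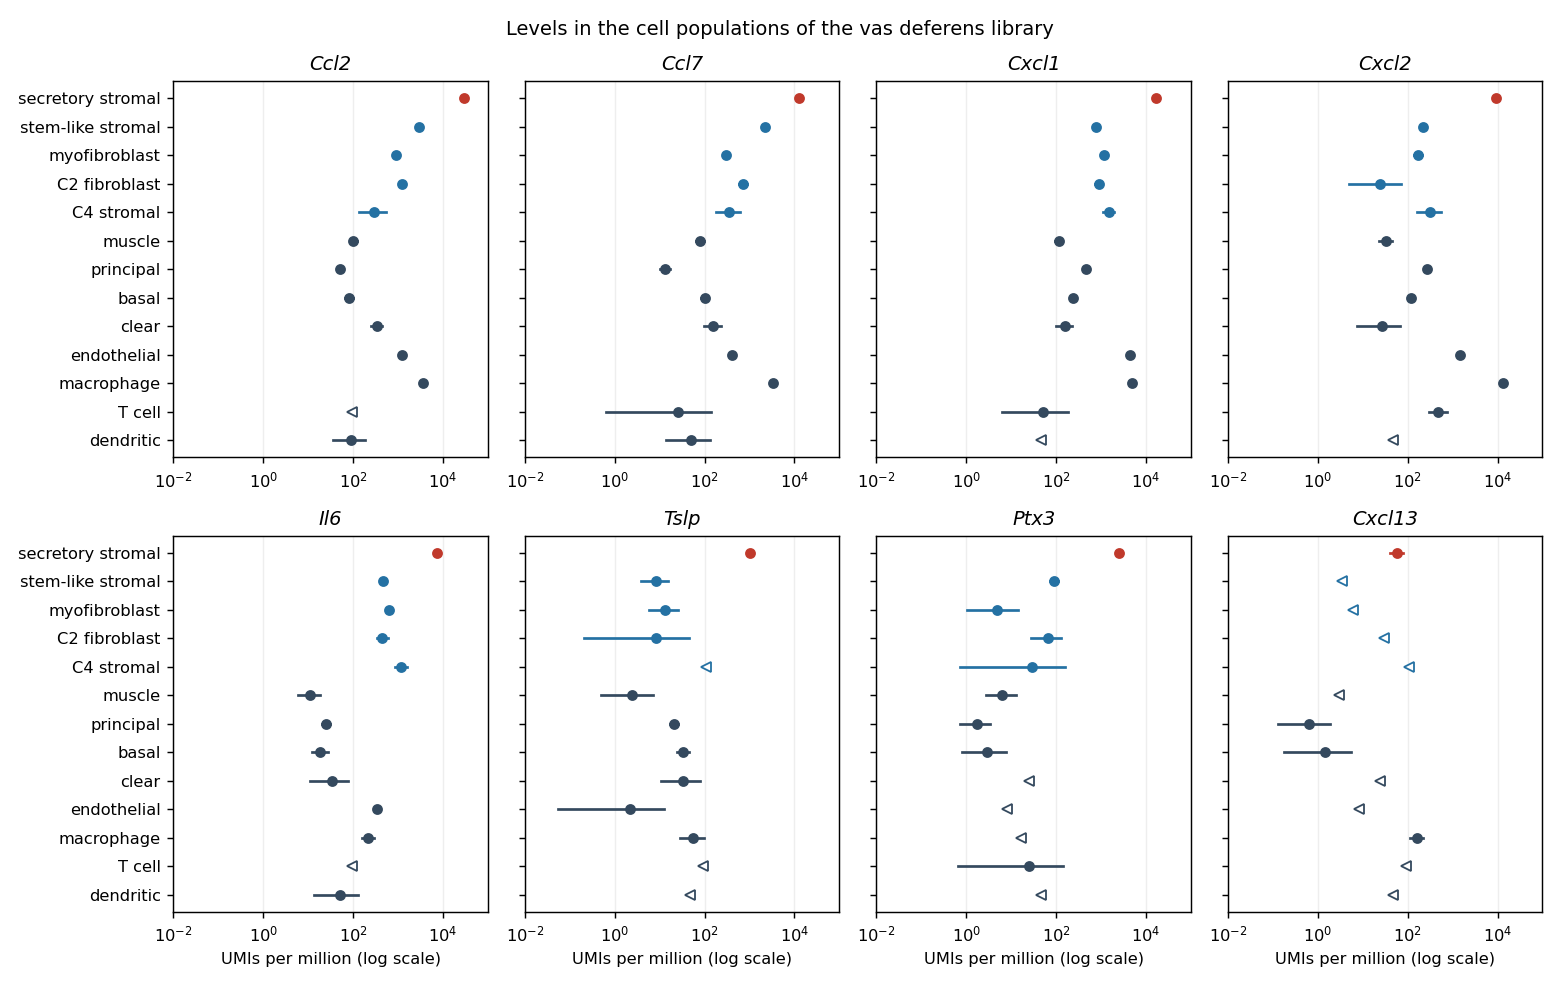
Levels of 8 genes in the 13 cell populations of the vas deferens library, in UPM on a log scale, with exact 95% Poisson intervals as lines; open triangles mark the upper limit where a population had 0 UMIs. The secretory cells (red) lie above every other population for *Ccl2*, *Ccl7*, *Cxcl1*, *Il6*, *Tslp* and *Ptx3*, and below macrophages for *Cxcl2* and *Cxcl13*.

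Of 14 cytokines counted, 8 were at least 2 times higher than in stem-like cells, 4 were lower and 2 lay between, with a median ratio of 2.56, and under TMM 9 were higher and 4 lower. *Il6*, which acts on the liver, on lymphocytes and on neighbouring cells through gp130, made up 69.5% of the cytokine UMIs. It stood at 7282 UPM in secretory cells (7077 to 7492), 466 in stem-like cells, 621 in myofibroblasts, 449 in C2 fibroblasts and 1178 in C4 stromal cells, and at 25.0 in principal cells. In the corpus library the C4 stromal cells stood at 8512 UPM, so the *Il6* level of the secretory cells was not matched within the vas deferens but was reached elsewhere. Its ratio to stem-like cells was 15.6 (14.3 to 17.2). Among other ligands that signal through gp130, *Il11* stood at 415 UPM, 2.50 times the stem-like level (2.06 to 3.03), and *Lif* at 218 UPM, 8.80 times (5.80 to 13.8), while *Clcf1* was lower, at 9.16 UPM against 46.9. *Csf3*, or G-CSF, which drives the production of neutrophils, stood at 472 UPM against 63.4, a ratio of 7.44 (5.71 to 9.80), and *Csf1*, the growth factor of macrophages, at 266 UPM against 101. *Il33*, an alarmin stored in nuclei, stood at 232 UPM against 53.3. Macrophage cytokines were not found here: *Il1a*, *Il1b*, *Tnf* and *Osm* were at 0 UMIs, where macrophages had 4576 UPM of *Il1b*. *Mif* at 226 UPM was close to the 253 UPM of stem-like cells, and *Tnfsf12*, or TWEAK, at 30.5 UPM was below their 81.8.

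*Tslp*, an epithelial and stromal cytokine that primes dendritic cells, had the largest ratio of any gene with at least 50 UMIs. It stood at 1001 UPM in secretory cells (926 to 1081), 8.27 in stem-like cells, 13.1 in myofibroblasts and 8.17 in C2 fibroblasts, with 0 UMIs in C4 stromal cells. The ratio to stem-like cells was 121 (63.4 to 266), the latter resting on 9 UMIs. Principal cells had 21.1 UPM, basal cells 33.3 and macrophages, the highest other population, 55.1. *Ptx3*, a secreted pentraxin that opsonises microbes and binds complement, stood at 2478 UPM (2359 to 2602) against 91.9 in stem-like cells, a ratio of 27.0 (22.0 to 33.3), and 92.4% of its UMIs in the library lay in secretory cells. Of the 100 *Ptx3* UMIs in stem-like cells, 40 lay in 1 cell, so the ratio depends on that cell. In endothelial cells and macrophages *Ptx3* had 0 UMIs. *Cxcl13*, which draws B cells into lymphoid follicles, stood at 56.5 UPM, and stem-like cells had 0 UMIs, which gave 20.5 times the 3 UMI floor with an interval from 15.8 upward, or 11.1 times as a mean over cells, but macrophages had 161 UPM, and without the 1 leading cell too few UMIs remained for a ratio.

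The UMIs of these factors were spread unevenly over the cells. To compare cells of equal depth, 1000 UMIs were drawn at random from each cell that had them, which left 181 of the 213 secretory and 404 of the 517 stem-like cells. *Ccl2* was found in 180 of 181 secretory cells (99.4%, with an exact interval from 97.0% upward) and in 40.3% of stem-like cells, and *Ccl7* in 93.4% and 42.3%. *Cxcl1* was found in 87.8% of secretory cells and *Il6* in 80.7%, against 23.8% and 24.5% of stem-like cells. *Cxcl2* was found in 58.6%, *Ptx3* in 44.8% (37.4 to 52.3%), *Tslp* in 26.0% (19.7 to 33.0%) and *Csf3* in 13.8%. Of the 1360 principal cells, at a median of 1286.5 UMIs against 3129 in secretory cells, 773 had at least 1000 UMIs and were thinned. These had *Ccl2* in 4.40%, *Cxcl1* in 14.5%, *Cxcl2* in 8.02%, *Il6* in 2.07%, *Ptx3* in 0.129%, *Tslp* in 2.33% and *Csf3* in 2.98%. For *Ptx3* and *Tslp* no principal cell had more than 3 UMIs, whereas single principal cells reached 79 UMIs of *Cxcl1* and 105 of *Cxcl2*, so the shares of these chemokines are no background level. *Cxcl13* was found in 1 of 181 secretory cells. Without thinning the shares were 99.5% for *Ccl2*, 50.2% for *Ptx3*, 35.7% for *Tslp* and 1.41% for *Cxcl13*. The 21 cells with the most *Ccl2* held 28.2% of its UMIs, whereas the 21 with the most *Ptx3* held 62.1% and the 21 with the most *Tslp* 81.4%. One cell alone held 14.9% of the *Tslp* UMIs. *Ccl2* and *Ccl7* were found in nearly every cell, while for the less abundant *Ptx3*, *Tslp* and *Csf3* a cell with 0 UMIs may lack the transcript or have been sampled too thinly.

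**Figure D3:**
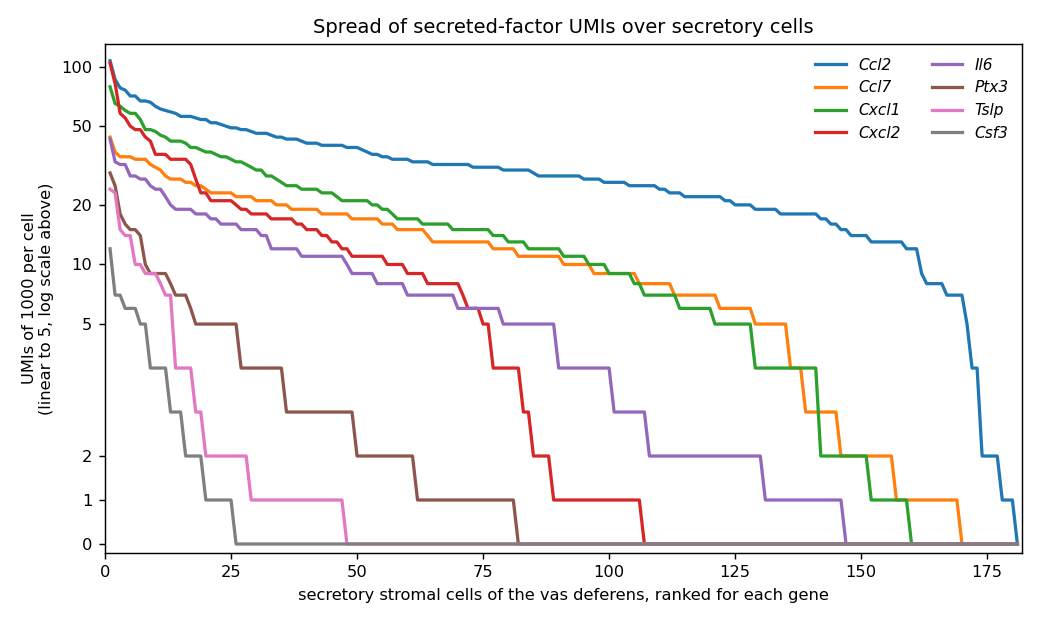
UMIs of 8 secreted factors in the 181 secretory cells of the vas deferens with at least 1000 UMIs, each cell thinned to 1000, with cells ranked separately for each gene; the y axis is linear to 5 and logarithmic above. *Ccl2* stays above 0 in 180 cells, while *Tslp* reaches 0 after 47 cells and *Csf3* after 25.

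Together the 77 chemokine and cytokine genes took a median of 72.0 of 1000 UMIs per secretory cell, with a lowest cell at 4 and a highest at 257. In stem-like cells the median was 5.00 and the highest cell 70, so that 0 of 404 stem-like cells passed the secretory median. Still, 6.44% of them reached the 10th percentile of secretory cells, 32.0 UMIs, so the populations overlapped at the margin. C2 fibroblasts had a median of 15.0, myofibroblasts 3.00 and endothelial cells 5.00. Macrophages had a median of 66.0 and a highest cell at 298, so that they overlapped the secretory cells, and the highest endothelial cell reached 360. Across the 181 thinned secretory cells, which share a library and a depth, *Cxcl1* and *Cxcl2* had a Spearman correlation of 0.55, *Cxcl1* and *Ccl2* 0.40, *Cxcl1* and *Il6* 0.38 and *Cxcl1* and *Ptx3* 0.36, given as a description. Of the other pairs of these factors, *Il6* and *Ptx3* had 0.33, *Ccl2* and *Cxcl2* 0.32 and *Il6* and *Tslp* 0.31, and others were near 0, such as *Ccl2* with *Il6* at 0.09 and with *Tslp* at 0.06 and *Ccl7* with *Cxcl1* at 0.08, and *Ccl2* with its neighbour *Ccl7* had 0.17 and *Ptx3* with *Tslp* 0.13. The summed chemokines and cytokines had a correlation of 0.10 with the depth of the cell and of 0.00 with the summed immediate early genes.

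**Figure D4:**
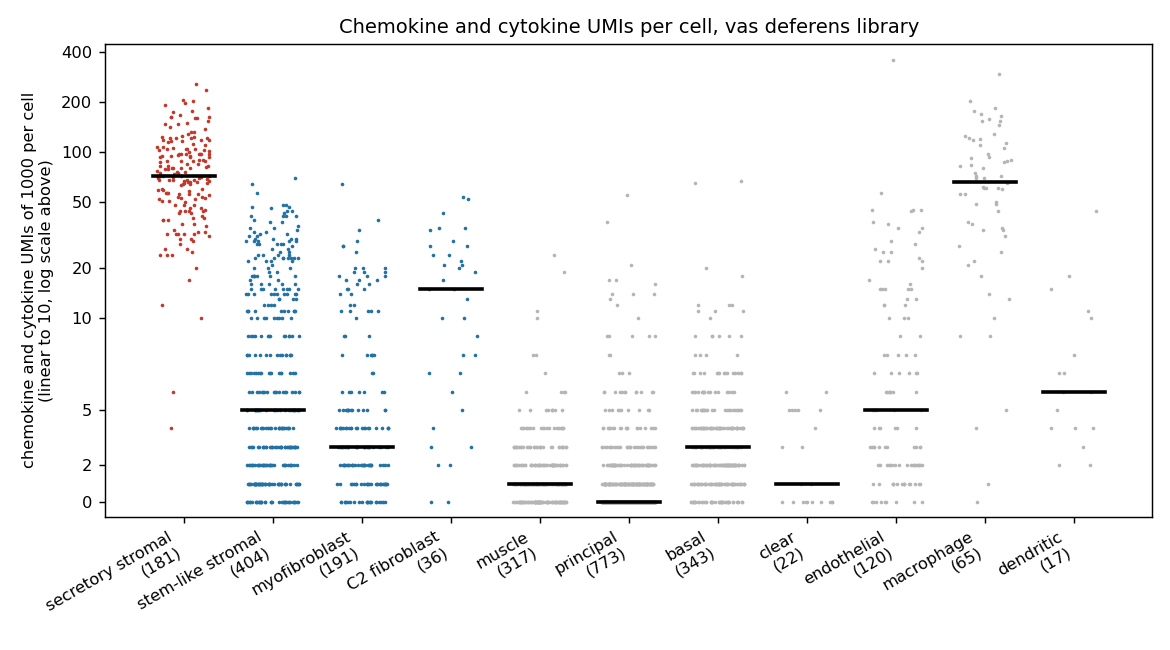
UMIs of 77 chemokine and cytokine genes among 1000 UMIs per cell in the populations of the vas deferens library with at least 10 such cells; points are cells, black bars are medians, numbers in brackets are cells, and the y axis is linear to 10 and logarithmic above. Secretory cells (median 72.0) and macrophages (66.0) stand above stem-like cells (5.00) and all other populations shown.

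Of 17 complement and acute phase genes counted, 10 were at least 2 times higher than in stem-like cells and 0 were lower, with a median ratio of 4.02. *C7*, a component of the membrane attack complex, stood at 1329 UPM against 255, a ratio of 5.20 (4.54 to 5.98), and *C3*, the central complement protein, at 325 UPM against 63.4, a ratio of 5.13. *Saa3*, an acute phase serum amyloid, had a ratio of 18.1 (12.3 to 27.8), yet a UMI was found in 6.63% of thinned secretory cells and in 0.495% of stem-like cells. In stem-like cells 1 cell held 71.4% of its 28 UMIs, and in secretory cells 1 cell held 28.8% of its 306 UMIs. *Lcn2*, which withholds iron from bacteria, stood at 362 UPM, 4.69 times the stem-like level. *Serping1*, the inhibitor of C1, was the most abundant of the list at 2555 UPM with a ratio of 1.59, and *Lbp* at 157 UPM and *Cd59a* at 29.0 had ratios of 0.935 and 0.501.

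Of 6 adhesion genes counted, 5 were at least 2 times higher and 1 lower. *Vcam1*, the ligand of integrin alpha 4 on leukocytes, stood at 2025 UPM against 436 in stem-like cells, a ratio of 4.65 (4.18 to 5.17), and at 1089 in endothelial cells. *Icam1* stood at 1970.1 UPM, 2.21 times the stem-like level, and *Bst2* at 45.8 was the 1 gene of the list that was lower. Of 18 genes of an NF-kB feedback list, which holds subunits, inhibitors and targets of the pathway, 9 were higher and 0 were lower, with a median ratio of 2.01. *Sod2*, a mitochondrial superoxide dismutase, stood at 1395 UPM against 176, a ratio of 7.95 (6.79 to 9.34), *Zc3h12a*, an RNase that degrades *Il6* messages, had a ratio of 4.26 and *Nfkb1* 3.56. *Nfkbia*, which encodes the inhibitor IkB alpha, was the most abundant of them at 2375 UPM with a ratio of 1.45, and *Rela*, *Birc2* and *Bcl3* had ratios of 0.953, 0.949 and 0.502.

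The IL-6 and STAT3 list held 3 higher and 2 lower genes of 14 (1 lower under TMM), where 6.35% of all counted genes were higher and 23.2% lower, with a median ratio of 1.08. *Stat3* itself had a ratio of 1.07 and its feedback target *Socs3* one of 0.738 (0.631 to 0.862), while *Cebpd*, a transcription factor of the acute phase, stood at 4154 UPM, a ratio of 2.30. *Il4ra* and *Osmr* had ratios of 2.52 and 2.04, and *Il6ra*, the receptor subunit that binds interleukin 6, one of 0.281.

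Immediate early and heat shock genes, which enzymatic dissociation is known to induce, were not higher as a group than in stem-like cells or C2 fibroblasts. Of 31 counted, 2 were at least 2 times higher and 9 lower, or 5 lower under TMM, shares not far from the 6.35% and 23.2% of all counted genes, and they summed to 23666 UPM against 33041 in stem-like cells, 21993 in myofibroblasts and 35475 in C2 fibroblasts. Against myofibroblasts 5 of 30 were higher and 3 lower, where 9.92% of all counted genes were higher and 32.1% lower. The median ratio was 1.14 where that of all genes was 0.688. *Fos* stood at 584 UPM against 1890.3, a ratio of 0.309 (0.277 to 0.345), *Jund* had a ratio of 0.298 and *Hspb1*, a small heat shock protein, 0.240. *Junb* was the most abundant at 3379 UPM with a ratio of 0.934. The genes that were higher were *Ier3*, with a ratio of 2.82, and *Nr4a2*, with 2.31, followed by *Zfp36*, which destabilises cytokine messages, with 1.35. The part of dissociation in the chemokine levels was not tested. The interferon response list likewise held 0 higher and 5 lower genes of 16, or 2 lower under TMM, where 23.2% of all counted genes were lower, with *Ifi27l2a* at a ratio of 0.213, *Irf7* at 0.237 and *Ifit3* at 0.427. *Irf1*, the most abundant of them, had a ratio of 0.901.

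**Figure D5:**
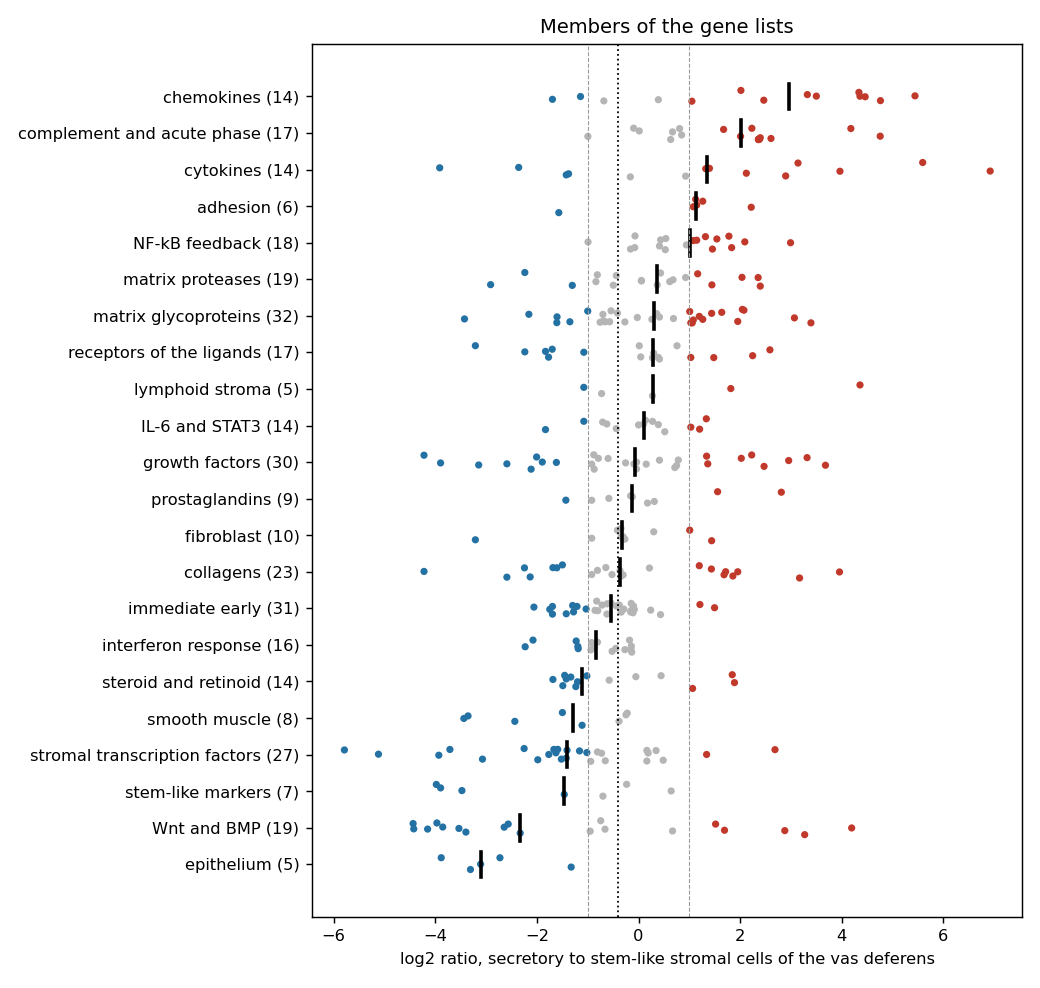
Log2 ratio of secretory to stem-like cells of the vas deferens for the counted members of the 22 lists with at least 5 of them (numbers in brackets); each point is a gene, red at least 2 times higher, blue at least 2 times lower, grey between; black bars are list medians, the dotted line is the median of all 5964 genes (-0.41) and the dashed lines mark a ratio of 2. Chemokines and complement genes have the highest medians and the epithelial, Wnt and BMP lists the lowest; some genes belong to more than 1 list.

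Signals of tissue patterning were split between few abundant genes and many lower ones, and the Wnt and BMP list summed to 8579 UPM against 4682 in stem-like cells. Of 19 counted Wnt and BMP ligands and antagonists, 10 were at least 2 times lower than in stem-like cells and 5 higher, where 23.2% of all counted genes were lower and 6.35% higher, with a median ratio of 0.199. *Sfrp2*, a secreted Wnt antagonist, stood at 33.6 UPM against 727, a ratio of 0.0462 (0.0288 to 0.0704), *Wnt4* at 7.63 against 164, and *Wnt6* had a ratio of 0.0563. *Rspo3*, which strengthens Wnt signals through LGR receptors, was higher, at 682 UPM against 70.8, a ratio of 9.64 (7.55 to 12.4), as was the activin antagonist follistatin (*Fst*), the most abundant of the list, at 6747 UPM against 2355. *Sfrp1* stood at 273 UPM with a ratio of 3.23. Of 7 stem-like markers counted, 4 were lower, 3 lay between and 0 were higher, and the study named the stem-like population for 3 of the lower ones, so their direction was set by that choice. *Lgr5*, an R-spondin receptor of epithelial and stromal stem cells, stood at 24.4 UPM against 385, *Angpt1*, a ligand of the endothelial receptor Tie2, at 38.2 against 568 and *Tspan8* at 29.0 against 323. *Ly6a*, or Sca-1, stood at 485 UPM in secretory and 571 in stem-like cells, *Cd34* at 153 and 248, and *Ly6c1* at 281 and 180.1.

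Transcription factors that mark stromal identity were lower for the most part. Of 27 counted, 16 were at least 2 times lower and 2 higher, and under TMM 14 were lower and 2 higher, with a median ratio of 0.377 against 0.755 for all genes, of which 23.2% were lower and 6.35% higher. *Foxf1*, a target of hedgehog signals, stood at 4.58 UPM against 159, a ratio of 0.0288 (0.00588 to 0.0856), *Lef1*, a nuclear partner of beta-catenin, at 1.53 against 84.5 and *Osr1* at 12.2 against 159.9. *Zeb1* was higher, at 293 UPM with a ratio of 2.53, as was *Ebf1* with 31 UMIs and a ratio of 6.43 (2.89 to 16.2), while *Twist1* had a ratio of 1.40 and *Prrx1* of 1.27. *Klf4*, which is also in the immediate early list, was the most abundant at 1454 UPM against 3895. *Hhip*, a decoy receptor for hedgehog ligands, was among the 10 genes with the smallest ratios, at 4.58 UPM against 169, together with *Lef1*, *Foxf1*, *Sfrp2*, *Coch*, *Cadm1*, *Nrep*, *Foxq1*, *Wfdc1* and *Fbxo2*, with ratios from 0.0181 to 0.0462. All of these but *Sfrp2* rested on 1 to 3 UMIs in secretory cells, and the upper ends of the 10 intervals ran from 0.0704 to 0.175. Of 14 steroid and retinoid genes, 8 were lower (4 under TMM) and 3 higher, where 23.2% of all counted genes were lower and 6.35% higher. *Nr3c1*, the glucocorticoid receptor, stood at 42.7 UPM against 108, while *Hsd11b1*, which regenerates active glucocorticoid, stood at 502 UPM against 139.7, a ratio of 3.59.

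Of 30 growth factors, 8 were higher and 8 lower, where 6.35% of all counted genes were higher and 23.2% lower, with a median ratio of 0.956 that becomes 1.22 under TMM. *Igf1*, insulin-like growth factor 1, stood at 929 UPM against 198 in stem-like cells and 261 in C2 fibroblasts, a ratio of 4.68 (4.00 to 5.49) to the former. *Figf*, or VEGF-D, which acts on lymphatic vessels, stood at 258 UPM with a ratio of 12.8 (8.15 to 20.9), and *Inhba*, a subunit of activin, had a ratio of 7.75. Pleiotrophin (*Ptn*) was the most abundant at 2069 UPM with a ratio of 1.64. *Angpt1*, *Nrg1* and *Tgfb3* had ratios of 0.0672, 0.113 and 0.249, and *Vegfa* was level at 238 against 244 UPM.

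Collagen genes summed to 5955 UPM against 7117 in stem-like cells, and of 23 counted 8 were higher and 7 lower, with a median ratio of 0.777, close to that of all genes. The abundant fibrillar collagens of types I and III lay between, with *Col1a2* at 1503 UPM with a ratio of 0.810 and *Col3a1* at 557 with 0.528. All 4 counted genes of collagen VI, which forms beaded filaments around cells, were higher, with *Col6a1* at 2.29, *Col6a2* at 2.70, *Col6a3* at 3.87 (2.96 to 5.12) and *Col6a5* at 8.99, while 5 of the 7 lower genes were *Col4a5* and *Col4a6* of basement membranes, *Col15a1* and *Col18a1*, which lie beside them, and the membrane collagen *Col23a1*, with ratios from 0.0536 to 0.354, and *Col27a1*, a fibrillar collagen of cartilage, had a ratio of 0.228. Of 32 matrix glycoproteins and proteoglycans, 13 were higher and 6 lower, with a median ratio of 1.24, and they summed to 34856 UPM against 21524. *Thbs1*, thrombospondin, stood at 2327 UPM with a ratio of 10.5 (9.17 to 12.1) and *Aspn*, asporin, at 655 with 8.38, while elastin (*Eln*) stood at 54.9 UPM against 590.0 in stem-like cells and the microfibril gene *Mfap2* at 53.4 against 163. *Dcn* and lumican (*Lum*) had ratios of 2.01 and 2.71. Of 19 matrix proteases and inhibitors, 5 were higher and 3 lower: the plasminogen activators *Plau* and *Plat* had ratios of 5.26 and 5.11 and the protease inhibitor *Serpine2* 4.10, against 0.212 for the gelatinase *Mmp2*. UMIs are tags of 3′ ends, 1 per transcript, so these levels are not divided by gene length. *Timp2* led the list at 1607 UPM with a ratio of 1.04. The fibroblast list as a whole had 2 higher and 1 lower gene of 10, the latter the PDGF receptor *Pdgfrb* at 68.7 UPM against 633, and its median ratio lay below 1 but at 1.02 under TMM.

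Other lists held few counted genes. Of 9 prostaglandin genes, *Ptgs2*, the inducible cyclooxygenase, stood at 1905 UPM against 648, a ratio of 2.94 (2.68 to 3.23), *Ptgir*, the prostacyclin receptor, had a ratio of 7.01 on 38 UMIs, and *Pla2g4a* was lower with a ratio of 0.371, while *Ptges*, the synthase of prostaglandin E2, had a ratio of 0.918. Of 5 lymphoid stroma genes, 2 were higher, podoplanin (*Pdpn*) with a ratio of 3.52 and *Cxcl13*, and 1 was lower (0 under TMM). Of 8 smooth muscle markers, 5 were lower and 0 higher (4 lower under TMM), of 4 pericyte markers 3 were lower and of 5 epithelial markers 5 were lower (4 under TMM). *Procr*, the receptor of protein C, stood at 1010.2 UPM with a ratio of 16.9, and *Slc7a11*, the cystine transporter of glutathione synthesis, at 252 with 14.4. *Rnd1*, a small GTPase, had a ratio of 18.9 to stem-like cells but stood at 278 UPM against 2049.9 in endothelial cells. Among the 15 most abundant transcripts, taken by rank of level, were the metallothioneins *Mt2* and *Mt1* and the cysteine protease inhibitor *Ctla2a*. *Mt2* stood at 23141 UPM against 8382 in stem-like cells and *Mt1* at 21665 against 16359. *Ctla2a* stood at 13086 UPM against 1121 in stem-like cells and 10883 in C2 fibroblasts. The C2 level rested on few cells. *Ctla2a* was found in 8 of 39 C2 fibroblasts, and 4 of them held 92.0% of its UMIs, with 39.5% in 1 cell. Among thinned cells it was found in 16.7% of C2 fibroblasts, 12.1% of stem-like cells and 78.5% of secretory cells.

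Against every other stromal population of the library, 97 of 3573 genes with at least 20 UMIs were at least 2 times higher in the secretory cells (2.71%). This count was 268 with TMM and 153 with cells of all libraries. Because the C4 stromal cells were shallow, genes with few secretory UMIs could not be called, and the lowest count among the 97 was 38 UMIs. The 2.71% is therefore not a share of genes that could have been called. The 10 with the largest ratios to the highest other stromal level were *Cxcl2* at 29.5, *Ptx3* at 27.0, *Tslp* at 11.6, *Cxcl1* at 11.5, *Ccl2* at 10.0, *Nppc* at 7.54, *Csf3* at 7.44, *Il6* at 6.18, *Ccl7* at 5.52 and *Ifi202b* at 5.47. The value of 11.6 for *Tslp* depends on the floor and is not a lower bound. Its highest other level was the 3 UMI floor of the small C4 population, as it was for 11 of the 97 genes. *Nppc*, the precursor of C-type natriuretic peptide, stood at 433 UPM against 48.7 in stem-like cells, and *Ifi202b*, an interferon-inducible DNA sensor, at 221 against 40.4. Among the 97 were 7 chemokines, 6 cytokines, 6 complement and acute phase genes and 5 NF-kB feedback genes.

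Most counted chemokines were higher in the secretory cells than in each of the other stromal populations too. Against myofibroblasts, 10 of 12 counted chemokines were at least 2 times higher and 0 lower, where 9.92% of all counted genes were higher and 32.1% lower. Against C2 fibroblasts, 10 of 12 were higher and 1, *Cxcl14*, was lower, where 16.9% of all genes were higher and 5.16% lower. Against C4 stromal cells, 8 of 12 were higher and 0 lower, where 11.7% of all genes were higher and 2.57% lower, but these 37 cells had a median of 556 UMIs. Growth factors leaned further to the secretory cells against C2 fibroblasts, with 12 of 20 higher and 1 lower, and complement genes against myofibroblasts, with 14 of 17 higher and 2 lower. Collagens showed few differences from C2 fibroblasts, with 1 of 20 higher and 1 lower. The transcription factors were lower than in myofibroblasts too, 16 of 25, but split against C2 fibroblasts, 4 higher and 5 lower of 17. Against C4 stromal cells 3 of 16 were higher and 0 lower.

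The receptor list summed to 2095 UPM in secretory and 2096 in stem-like cells, 2322 in macrophages and 1889 in endothelial cells. *Ccr2*, the receptor of CCL2 and CCL7, had 0 UMIs in secretory cells and 10 each in macrophages (45.9 UPM) and T cells (255 UPM), and *Ccr1* had 46 UMIs in macrophages (211 UPM) and 0 in every stromal population. *Cxcr2*, the receptor of CXCL1 and CXCL2, had 1 UMI in the library, in an endothelial cell, and *Csf3r* 7 UMIs in macrophages and 0 in secretory cells. *Ackr1*, a scavenging receptor on venules that binds CCL2 and CXCL1, had 44 UMIs in endothelial cells and 0 in secretory cells. *Il7r*, which forms the receptor of TSLP together with CRLF2, had 47 UMIs in macrophages (216 UPM) and 16 in dendritic cells (202 UPM) against 1 in secretory cells, and *Crlf2* was found at 35.1 UPM in secretory cells, 106 in macrophages and 114 in dendritic cells. *Il6ra* was higher in stem-like (59.7 UPM) than in secretory cells (16.8). *Il1r1*, the receptor of interleukin 1, led the list in secretory cells with 349 UMIs, or 533 UPM, against 191 in stem-like cells, 107 in myofibroblasts and 13.8 in macrophages, a ratio of 2.79 to stem-like cells (2.34 to 3.32). *Ackr3*, a scavenger of CXCL12, stood at 71.7 UPM with 47 UMIs against 11.9 UPM in stem-like cells. In all, 4 of 17 counted receptors were higher and 6 lower, where 6.35% of all counted genes were higher and 23.2% lower.

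The 13 secretory cells of the cauda and corpus were shallow, with a median of 683 UMIs and 20318 UMIs in all. Their values are set beside those of the vas deferens as a description only. *Ccl2* was found in 13 of 13 and stood at 35182 UPM in the 8 cauda cells (32379 to 38163) and 20242 in the 5 corpus cells (15975 to 25299), beside 29975 in the vas deferens. *Cxcl1* stood at 6358 UPM in the cauda and 27077 in the corpus cells, where 1 cell held 68.0% of its UMIs. *Ccl7* had 218 UMIs in the cauda and 1 in the corpus cells. *Ptx3* had 7 UMIs in the 13 cells, or 345 UPM, *Tslp* 2 and *Cxcl13* 0, with *Ptx3* at 60.6 UPM in the cauda and 1577 in the corpus cells (579 to 3433). *Csf3* reached 3298 UPM through a pair of cells, 1 of which held all 50 of its UMIs in the corpus, and all 56 UMIs of *Vcam1* in the corpus also lay in 1 cell. The endothelial list summed to 1969 UPM in the 13 cells against 149.6 in the secretory cells of the vas deferens, and the adhesion list to 8613 against 4299; the part of endothelial RNA in these values was not tested. *Il6* stood at 1938 UPM in the cauda cells, where 1 cell held 84.4% of its UMIs, and at 12355 in the corpus cells (9078 to 16430.1). The 182 C4 stromal cells of the corpus had 8512 UPM of *Il6* (8057 to 8987).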

How the data were processed

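Single-cell RNA libraries of 4 regions, each 1 pool of tissue from 4 mice, were analysed. As deposited by the authors, the values are UMI counts per gene and cell for 16892 genes. The authors aligned reads to mm10 (the same assembly as GRCm38) with HISAT2 2.0.4, counted UMIs on RefSeq genes with ESAT without multimapping reads, kept barcodes within limits on their UMIs and removed ambient RNA with a modified SoupX, which took 2.80% of the UMIs of secretory and 4.05% of those of stem-like cells. Cell populations are those of the deposited cell table.

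Counts were summed over cells and divided by the total. All intervals are at 95%: exact Poisson for a level, Clopper-Pearson for a share and, for a ratio, the exact binomial conditional on the summed count. A count of 0 was raised to 3 UMIs in ratios. With 1 library per region, the depth of a population sets the precision: 3 UMIs correspond to 4.58 UPM in secretory and 86.2 UPM in C4 stromal cells. Named genes were the 4 markers, the 10 largest and 10 smallest ratios to stem-like cells, the 10 largest to other stroma, the 3 highest, 3 lowest and most abundant members of 29 lists (all with at least 50 UMIs), receptors, and genes the study names; *Gsn*, *Mt1*, *Mt2*, *Ctla2a*, *Ccl8*, *Ccl11*, *Ccl12*, *Cxcl3*, *Csf1*, *Il11*, *Il33*, *Mif*, *C3*, *C7*, *Lcn2*, *Rela*, *Stat3*, *Socs3*, *Fos*, *Osr1*, *Ebf1*, *Vegfa*, *Col4a5*, *Col4a6*, *Col6a1*, *Col6a2*, *Col15a1*, *Ptgir* and the genes given as undetected were chosen after their values were seen. Some genes that the rule names are not reported here. The members, gene lists and thresholds were chosen with earlier results of these data known. Doublets were called from simulated doublets in 98 of 3506 vas deferens cells (2.80%, set by the assumed rate of 0.8% per 1000 cells). The threshold was tried on simulated sums of these populations in which 200 genes were changed. It called 160 of 160 genes changed at least 3-fold, 0 of 40 changed 1.25-fold and 120 of 5409 unchanged genes. Sums were simulated, so the result does not cover counts that lie mostly in single cells. Changed genes near the minimum of UMIs were not reported apart, so the result does not show how well these are called. Promoter sequences are from RefSeq (GRCm38.p6). TMM factors came from edgeR 4.0.16 in R 4.3.3; the rest was done in Python 3.11.15 with pandas 2.3.3, scipy 1.17.1, matplotlib 3.10.9, scikit-learn 1.9.0 and numpy 2.4.6.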

Additional observations from a re-analysis of the deposited data

How the results depend on the processing

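No paired analysis was possible because each region is 1 library, and for the same reason no sample could be left out. Of 107 values under alternative settings for 15 results, 78 stayed within 1.5 times the reported count or within the counting interval, 29 moved beyond it and 0 reversed. Only the ratios of the population markers could be called reversed, so the 0 does not bear on counts and shares. Lower minimums of UMIs could not change the count above every other stromal population, because of the shallow C4 stromal cells. The counts of genes moved most. At 1.5-fold, 689 genes were higher and 2487 lower than in stem-like cells and 188 were above every other stromal population, and at 4-fold these counts were 135, 373 and 19, with 0 immediate early genes higher. With 10 UMIs as the minimum 2169 genes were lower, with 50 UMIs 226 were higher and 597 lower, and with no minimum 856 and 2725. With TMM 628 were higher, 881 lower and 268 above every other stromal population, and with cells of all libraries 153 were above it. The ratio of *Ptx3* was 34.3 as a mean over cells and 34.4 with TMM, and that of *Cxcl13* was 11.1 as a mean over cells. The ratio of *Ccl2* was 9.35 as a mean over cells, 10.7 without called doublets, 9.21 on totals without immediate early and ribosomal protein genes and 12.8 with TMM. The share of secretory cells with *Ptx3* was 35.6% at 500 UMIs per cell and 33.7% when 2 UMIs were asked for, and that with *Tslp* was 16.5%, 15.5% and, unthinned, 35.7%. Among secretory cells with at least 1000 UMIs, 97.8% came from the vas deferens. Leaving out the secretory cell with the most UMIs of the gene, a setting added after the data were seen, gave ratios of 25.3 for *Ptx3*, 104 for *Tslp* and 9.90 for *Ccl2*, and for *Cxcl13* it left 3 UMIs and no ratio. The cause of these shifts was not tested. Depth limits the C4 stromal cells most, and no interval covers variation between animals.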
